A study of Mus musculus with 6 samples.

Results

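The genes of the Smad family were examined as sites of Smad occupancy in embryonic limb and molar tooth germ. The family comprised Smad1, Smad2, Smad3, Smad4, Smad5, Smad6, Smad7 and Smad9, taken by name, 8 of the 21887 protein-coding genes of the mouse annotation. A listed peak was counted at a gene when its summit lay inside the gene or within 50 kb of either end. Tissue came from wild-type CD1 embryos at E13.5 (embryonic day), and chromatin was precipitated with an antibody to pSmad1/5, the phosphorylated form of Smad1 and Smad5, or to Smad4. Each pairing of tissue and antibody had 1 library, and the limb and molar inputs had no antibody. The sources used here do not give how many embryos went into a library. Both tissues were whole dissected pieces, so a peak cannot be assigned to a cell type within them.

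Smad proteins carry signals of the transforming growth factor beta superfamily from receptors at the membrane to chromatin. Smad1, Smad5 and Smad9 are phosphorylated by receptors for bone morphogenetic proteins (BMPs), and Smad2 and Smad3 by receptors for TGF-beta and activin. These receptor-regulated Smads enter the nucleus with Smad4, the partner common to both branches. Smad6 and Smad7 are inhibitory Smads that block the receptors or the receptor-regulated Smads, Smad6 mainly in the BMP branch and Smad7 in both, and their genes are known as feedback targets. BMP signalling acts in tooth mesenchyme and in limb outgrowth and cartilage formation.

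With 1 library per tissue and antibody, no difference between lists has a replicate check, and the read depth of the libraries is unknown. The limb lists held 23389 (pSmad1/5) and 29756 (Smad4) peaks, and the molar lists 35476 (pSmad1/5) and 34561 (Smad4). The lowest enrichment score listed differed between chromosomes, and this touches every comparison of counts between Smad genes or tissues. Rounded down, it was 3 in both limb lists on chromosomes 3, 8, 9, 13 and 18, which carry the Smad genes. For molar pSmad1/5 it dropped to 2 where Smad9 and Smad5 lie (chromosomes 3 and 13) and stayed at 3 elsewhere among these. For molar Smad4 it stood at 4 where Smad1, Smad3 and Smad6 lie (chromosomes 8 and 9) and at 3 for the remaining Smad genes. Each count at a Smad gene was therefore set beside the number that the mean peak density of the same chromosome in the same list would place in a window of that length.

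Nearly all Smad genes had a peak in each list, which is also true of most genes. Limb pSmad1/5 peaks lay at 7 of the 8 Smad genes, beside 68.0% of all protein-coding genes, and limb Smad4 peaks at 8 of 8, beside 71.2%. Molar pSmad1/5 peaks lay at 8 of 8, beside 74.9%, and molar Smad4 peaks at 8 of 8, beside 68.0%. The gene without a peak was Smad4 in the limb pSmad1/5 list. In all there were 125 peaks, of which 48 lay inside the Smad gene itself and 40 had another protein-coding gene as the nearest one.

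Peak numbers were then compared with chromosome density. There were 36 limb pSmad1/5 peaks at the 8 genes where chromosome density would place 9.71, a ratio of 3.71 (95% Poisson interval 2.60 to 5.14). Molar pSmad1/5 had 41 against 13.8, a ratio of 2.97 (2.13 to 4.03). Limb Smad4 had 24 against 11.5, a ratio of 2.09 (1.34 to 3.11), and molar Smad4 24 against 15.3, a ratio of 1.56 (1.003 to 2.33). These intervals cover counting error only. The median ratio over the 8 genes was 3.62 for limb pSmad1/5, where the median over all protein-coding genes was 1.26. Limb Smad4 had 2.27 against 1.27. In molar the medians were 2.64 against 1.21 (pSmad1/5) and 1.52 against 1.04 (Smad4). In every list the 8 genes thus had a median above that of all protein-coding genes, by most for limb pSmad1/5 and by least for molar Smad4.

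**Figure D1:**
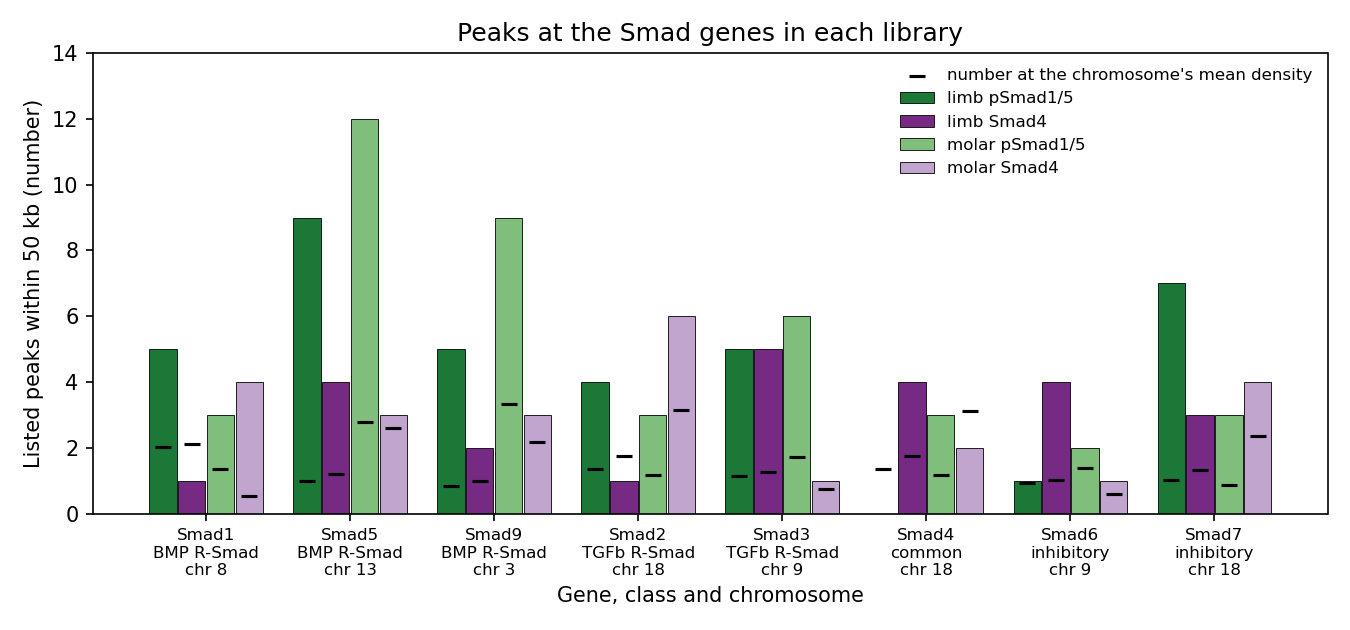
Number of listed peaks (vertical axis) with a summit inside each Smad gene or within 50 kb of it, by gene, class and chromosome (horizontal axis). Bars are the 4 libraries, and the black dash on each is the number that the chromosome's mean peak density would place there. Smad5 has the tallest bars, 9 limb and 12 molar pSmad1/5 peaks, and Smad4 has no limb pSmad1/5 bar.

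Summits close to the ends of the genes were counted next. Limb pSmad1/5 had a summit within 1 kb of an end of 4 Smad genes (Smad1, Smad2, Smad5 and Smad7), where 15.5% of all protein-coding genes had one. Limb Smad4 also had 4 (Smad1, Smad2, Smad3 and Smad4), beside 21.8%, and molar pSmad1/5 had 4 (Smad2, Smad3, Smad4 and Smad5), beside 20.7%. Molar Smad4 had none, beside 7.76%, and a count of 0 of 8 is near that share. The end lay at the RefSeq transcription start in Smad1, Smad3 and Smad5, except that the molar pSmad1/5 peak of Smad5 was at the far end. For Smad2, Smad4 and Smad7 the strand is not in the annotation used here. Smad6 and Smad9 had no summit within 1 kb of an end in any list. Of the 13 peaks near ends, 3 had a score of at least 4 (limb Smad4 at Smad1 and Smad3, limb pSmad1/5 at Smad2).

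Scores were also compared with the whole lists. A limb peak of score at least 4 lay at 5 Smad genes for pSmad1/5 (34.3% of all protein-coding genes had one) and at 4 for Smad4 (43.4%). In molar such a peak lay at 5 for pSmad1/5 (27.8%) and at 5 for Smad4 (39.0%). The molar Smad4 list starts at 4 on chromosomes 8 and 9, so every peak of it at Smad1, Smad3 and Smad6 reached that score. These genes are among the 5. In limb the median score at the Smad genes was 3.46 (pSmad1/5) and 3.54 (Smad4), near the medians of the whole lists, 3.44 and 3.53. In molar it was 3.19 (pSmad1/5) and 3.92 (Smad4), where the whole lists had 2.9995 and 3.38. These molar medians depend on which chromosomes carry the Smad genes, because the lowest listed score differs between chromosomes.

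The sequences before the starts of the genes are shown for Smad1, Smad5 and Smad3, because limb peaks flank them, and for Smad6, because no peak does. All are from RefSeq on GRCm38.p6, whose main chromosomes carry mm10 coordinates, and each reads 5′ to 3′ toward its gene. Smad1 is chr8:79399429-79399678 (minus strand), Smad5 chr13:56702760-56703009 (plus), Smad3 chr9:63757995-63758244 (minus) and Smad6 chr9:64022086-64022309 (minus). The Smad6 stretch ends at the edge of the gene model, short of the RefSeq start at 64022059, and the bases around that start, which hold GTCT, are printed with the longer motifs. Capitals mark GTCT or its complement AGAC, the short Smad-binding element.
Smad1: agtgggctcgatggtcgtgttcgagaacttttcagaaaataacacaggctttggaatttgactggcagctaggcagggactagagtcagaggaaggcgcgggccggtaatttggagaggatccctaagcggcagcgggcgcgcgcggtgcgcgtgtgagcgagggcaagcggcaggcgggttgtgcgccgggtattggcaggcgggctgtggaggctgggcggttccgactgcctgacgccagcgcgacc
Smad5: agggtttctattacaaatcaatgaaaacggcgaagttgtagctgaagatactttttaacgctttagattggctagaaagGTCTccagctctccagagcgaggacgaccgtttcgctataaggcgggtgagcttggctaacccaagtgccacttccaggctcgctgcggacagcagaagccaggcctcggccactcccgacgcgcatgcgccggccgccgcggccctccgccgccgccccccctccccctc
Smad3: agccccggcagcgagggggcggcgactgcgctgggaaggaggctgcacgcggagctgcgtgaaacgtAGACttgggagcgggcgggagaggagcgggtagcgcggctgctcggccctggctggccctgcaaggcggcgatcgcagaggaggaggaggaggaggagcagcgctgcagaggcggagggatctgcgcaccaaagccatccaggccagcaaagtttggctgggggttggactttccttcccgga
Smad6: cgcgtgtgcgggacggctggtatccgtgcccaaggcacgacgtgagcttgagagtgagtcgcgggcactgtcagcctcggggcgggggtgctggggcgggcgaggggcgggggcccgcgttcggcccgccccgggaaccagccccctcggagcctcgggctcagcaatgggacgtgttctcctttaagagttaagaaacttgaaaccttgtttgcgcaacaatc
The limb Smad4 peak of Smad1 began 160 bp from the 300-base window that RefSeq's start defines (250 bases before and 50 after it), on the side of the gene. The limb pSmad1/5 peak of Smad5 lay 16 bp beyond the window of a start that RefSeq places downstream. The limb Smad4 peak of Smad3 lay 78 bp upstream of its window. No listed peak overlapped any of the 7 windows of Smad1, Smad3, Smad5, Smad6 and Smad9. The nearest one at Smad6 lay 2437 bp away.

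Longer motifs are printed next, for the genes that hold them. The palindrome GTCTAGAC, searched on both strands, was in 0.213% of 32851 promoter windows of the table, and GGCGCC, the GC-rich element of BMP-regulated Smads, in 11.9%. GTCT on either strand was in 88.0% and is part of GTCTAGAC. Smad6 held GTCTAGAC across its start (chr9:64022045-64022074), and Smad5 (chr13:56703022-56703049) and Smad9 (chr3:54755520-54755547) held GGCGCC. Capitals now mark these motifs.
Smad6 site: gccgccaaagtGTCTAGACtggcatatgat
Smad5 site: cccggcgagcgGGCGCCgagcgcttgtc
Smad9 site: cacggccgcctGGCGCCcttccagcgcg
The composite BMP response element, GGCGCC followed after 5 bases by GTCT, was in 0.0731% of windows and in none of these 7. The windows of Smad1 and Smad3 held neither of the longer motifs, and that of Smad1 no GTCT either. These matches describe letters in the windows only.

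Smad1, a BMP-regulated Smad, had 5 pSmad1/5 and 1 Smad4 peaks in limb, and 3 pSmad1/5 and 4 Smad4 peaks in molar. In limb, 3 of these 6 sites crowded the start. The pSmad1/5 summits lay 323 bp (chr8:79399056-79399107, score 3.99) and 804 bp (score 3.89) downstream of it, and the Smad4 summit 284 bp downstream (chr8:79399076-79399219, score 4.88). The Smad4 peak overlapped the nearer pSmad1/5 peak by 32 bp, with summits 39 bp apart. Of the limb Smad4 peaks of chromosome 8, 6.95% scored as high. In molar the arrangement was different, where the summit closest to a gene end was 7447 bp from it. The molar pSmad1/5 peaks all lay inside the gene, with scores of 4.46, 3.56 and 3.43, and so did 3 of the 4 molar Smad4 peaks, with scores of 4.02, 4.76 and 4.11. The fourth lay 16084 bp upstream of the start with a score of 4.73. On this chromosome the molar Smad4 list starts at 4, and 96.4% of its peaks scored as high as 4.02 and 77.5% as high as 4.11. For 4.76 and 4.73 these shares were 16.6% and 17.7%.

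The molar Smad4 count of Smad1 was high for its chromosome. There the list is sparse, with 3.40 peaks per Mb, and the density at Smad1 was 7.30 times that. Of the 1043 protein-coding genes of chromosome 8, 2.11% were as dense or denser. For the other lists that share was 38.4% (limb pSmad1/5), 76.4% (limb Smad4) and 40.7% (molar pSmad1/5), so the strong limb Smad4 peak at the start stood alone in a window with few Smad4 peaks.

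Smad5, the other BMP-regulated Smad named by the antibody, had the most peaks of the family, 28 in all. There were 9 pSmad1/5 and 4 Smad4 peaks in limb, and 12 pSmad1/5 and 3 Smad4 peaks in molar. For limb pSmad1/5 the density was 9.01 times that of chromosome 13, and 2.29% of its 829 genes were as dense. For molar pSmad1/5 it was 4.30 times, and 1.21% were. Most of these peaks were not in the gene. Of the 9 limb pSmad1/5 peaks 1 was inside Smad5 and 7 lay nearest to another gene, Tgfbi on one side and Gm45623 or the cation channel gene Trpc7 on the other. The one inside was at the start, at chr13:56703117-56703183, with its summit 155 bp from the end of the gene model and a score of 3.95, the highest of the 9. All 4 limb Smad4 peaks lay nearest to Trpc7.

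The molar pSmad1/5 scores at Smad5 are read against those of its chromosome. The 12 molar pSmad1/5 peaks ran from 2.19 to 3.71, on a chromosome where that list goes down to 2, and 8 of them scored under 3. Of the molar pSmad1/5 peaks of chromosome 13, 6.86% scored as high as the highest of them. One of these, with a score of 2.56, sat 21 bp past the far end of the gene. A molar Smad4 summit lay inside the gene, 1549 bp from its lower end (score 3.27). It was 891 bp downstream of a RefSeq start that lies within the gene model. The highest molar Smad4 score was 4.12 at 31417 bp. That was the single peak of the 28 with a score of at least 4.

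Smad9, the third BMP-regulated Smad, had 5 pSmad1/5 and 2 Smad4 peaks in limb, and 9 pSmad1/5 and 3 Smad4 peaks in molar. Its highest limb peaks belonged by position to a neighbour. At 20360 bp upstream of the gene model, inside Exosc8 (a subunit of the RNA exosome) and 269 bp from its end, lay a limb pSmad1/5 peak of score 4.91 (chr3:54735014-54735139). A limb Smad4 peak of score 4.29 lay within it (chr3:54735064-54735126), with summits 3 bp apart. A second limb pSmad1/5 peak was 2 bp from the end of Exosc8 (score 3.37). Nearer to Smad9 itself, pSmad1/5 summits lay 2210 bp from the lower end in limb (score 3.10) and 1995 bp in molar (score 2.44), 215 bp apart. Of the 9 molar pSmad1/5 peaks, 8 scored under 3, where the limb list has none. The ratios to chromosome 3 were 5.93 and 2.71 for limb and molar pSmad1/5 and 1.998 and 1.37 for Smad4.

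**Figure D2:**
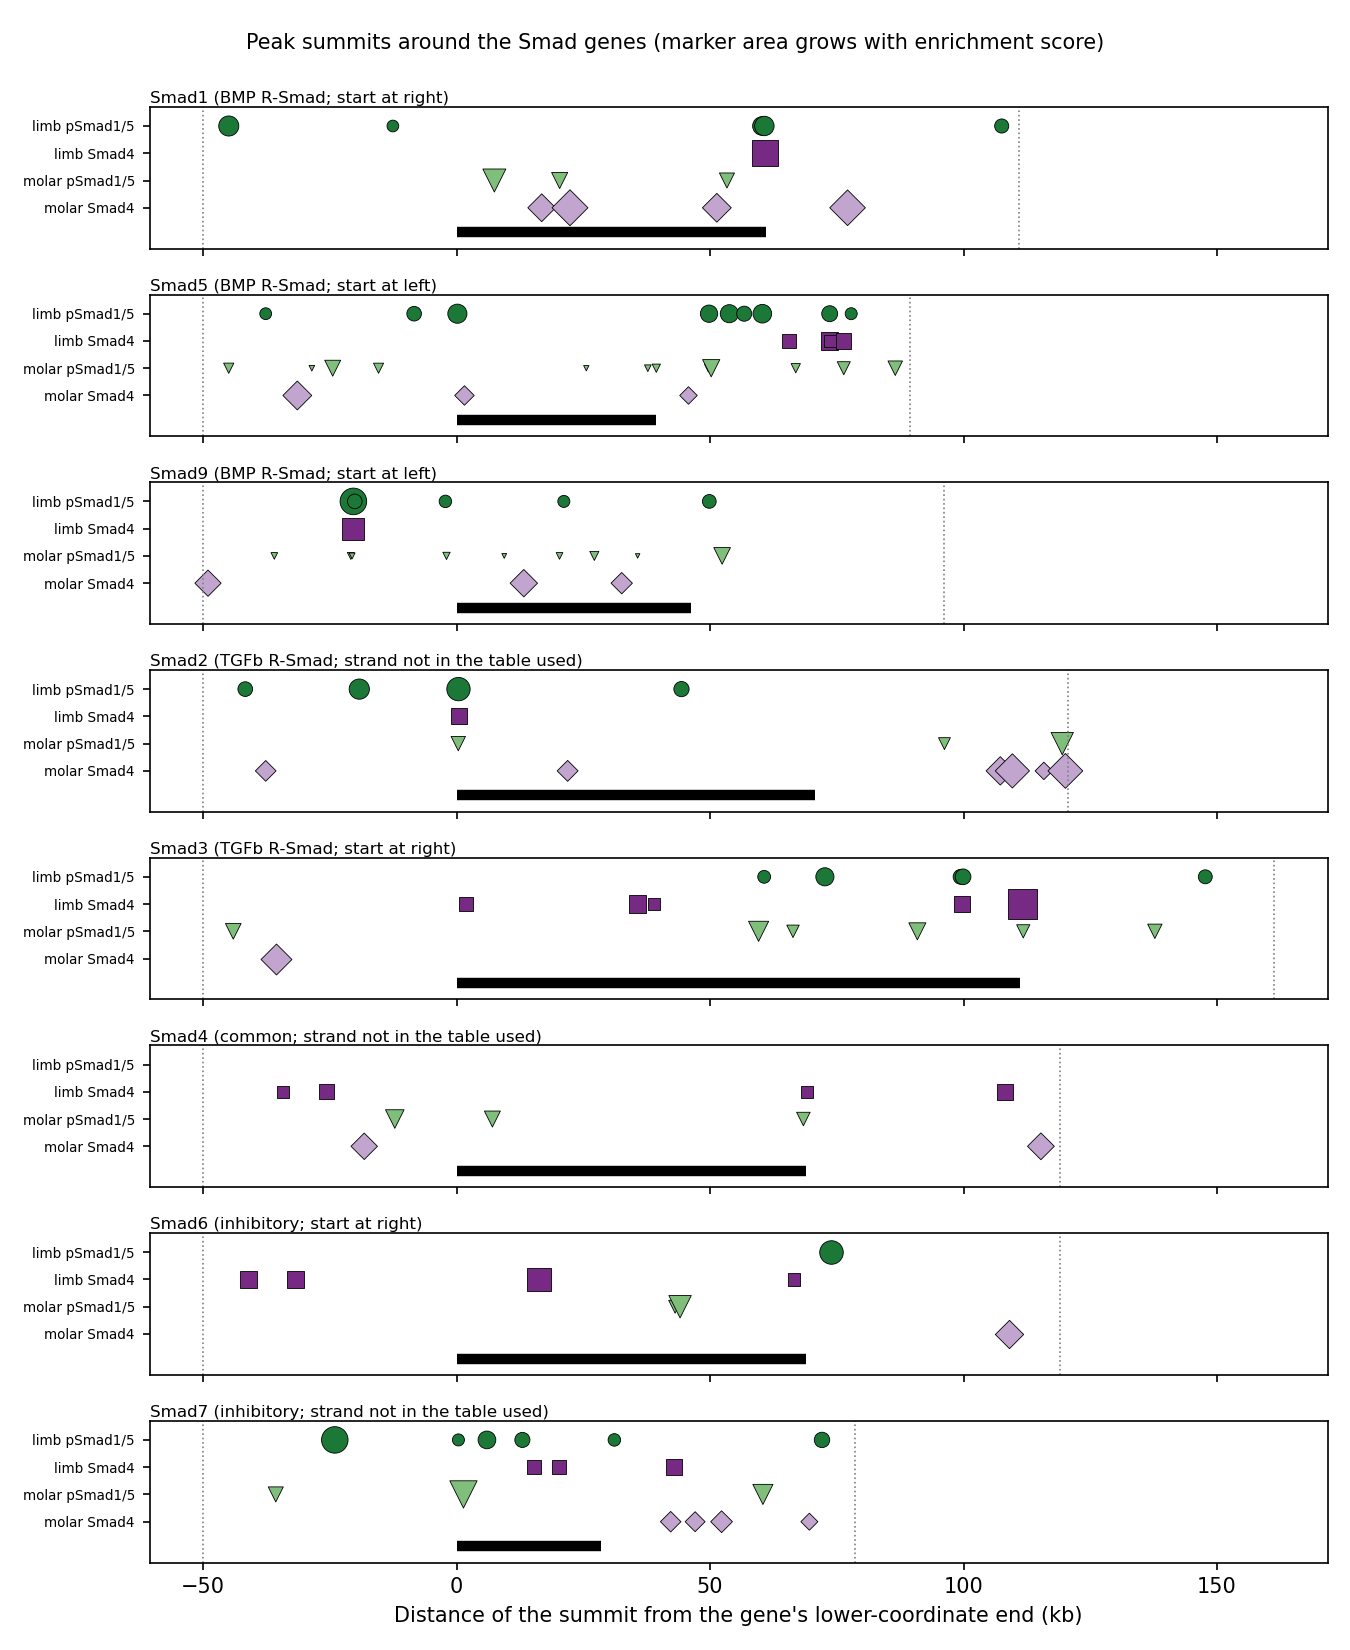
Summits of all listed peaks (markers, 1 row per library) by distance in kb from the lower-coordinate end of each Smad gene (horizontal axis). Black bars are the gene bodies, dotted lines the edges of the window, and marker area grows with the enrichment score. At Smad5 a run of limb pSmad1/5 summits lies to the right of the gene, and at Smad4 the limb pSmad1/5 row is empty. At Smad1 part of the limb summits gather just inside its right end, and the others lie outside the gene.

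Smad2, a mediator of TGF-beta and activin signals, had 4 pSmad1/5 and 1 Smad4 peaks in limb, and 3 pSmad1/5 and 6 Smad4 peaks in molar. Peaks of 3 libraries met just inside its lower-coordinate end. The limb pSmad1/5 summit was at 371 bp (chr18:76241429-76241480, score 4.49), the limb Smad4 summit at 424 bp (chr18:76241499-76241547, score 3.63) and the molar pSmad1/5 summit at 332 bp (chr18:76241374-76241431, score 3.35). The pSmad1/5 peaks of the tissues overlapped by 3 bp, and a gap of 18 bp separated the limb pSmad1/5 peak from the limb Smad4 peak. This was the single place in the family where both tissues had a pSmad1/5 peak at an overlapping position. The limb Smad4 peak here was the only one of that list at Smad2.

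Molar Smad4 had no peak at this end of Smad2. Its 6 peaks lay mostly beyond the other end, 4 of them between 36590 and 49429 bp out, with scores of 4.08, 4.61, 3.09 and 4.66. Of the molar Smad4 peaks of chromosome 18, 3.35% scored as high as the last. A molar pSmad1/5 peak of score 4.36 lay 48810 bp out. The next protein-coding gene to the nearest of these Smad4 peaks, Zbtb7c, was 199774 bp away.

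Smad3, the other TGF-beta-regulated Smad and the longest gene of the family at 111229 bp, had 5 pSmad1/5 and 5 Smad4 peaks in limb, and 6 pSmad1/5 and 1 Smad4 peaks in molar. Its strongest peak was also the highest-scoring at any Smad gene, a limb Smad4 peak 356 bp upstream of the start (chr9:63758322-63758370, score 5.24). A molar pSmad1/5 peak lay 545 bp upstream (chr9:63758465-63758573, score 3.19), 94 bp from it. No limb pSmad1/5 peak was there. Inside the gene, 11328 to 11815 bp from the start, limb pSmad1/5 peaks of score 3.52 and 3.40 flanked a limb Smad4 peak of score 3.56, with gaps of 212 and 114 bp. The 1 molar Smad4 peak of the window lay inside the neighbour Aagab. Ratios to chromosome 9 were 4.33 (pSmad1/5) and 3.90 (Smad4) in limb, and 3.47 and 1.34 in molar.

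Smad4, the common Smad, had 9 peaks in all. The limb pSmad1/5 list had 0 in its window, where chromosome density would place 1.36, and the ratio of 0 has a counting interval up to 2.71. With a window of 100 kb, limb pSmad1/5 peaks lay at 8 of 8 Smad genes, Smad4 included. There were 4 limb Smad4, 3 molar pSmad1/5 and 2 molar Smad4 peaks, with ratios to chromosome 18 of 2.29, 2.58 and 0.641. A limb Smad4 summit lay 58 bp outside the upper-coordinate end (chr18:73703802-73703868, score 3.08) and a molar pSmad1/5 summit 597 bp inside it (chr18:73703145-73703208, score 3.23). Of the chromosome's peaks in the same list, 90.3% scored as high as the limb peak and 69.1% as high as the molar one. None of the 9 peaks reached a score of 4. Of the 4 limb Smad4 peaks 3 lay nearest to Mex3c or Elac1, and 1 of the molar Smad4 peaks was inside Elac1.

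Smad6, the inhibitory Smad of the BMP branch, had the fewest peaks, with 1 pSmad1/5 and 4 Smad4 peaks in limb, and 2 pSmad1/5 and 1 Smad4 peaks in molar. The limb pSmad1/5 summit lay 4788 bp beyond the upper-coordinate end, upstream of the start (chr9:64026827-64026888, score 4.52). The limb Smad4 summit closest to an end was 2512 bp inside that end with a score of 3.09. The highest limb Smad4 score, 4.54, was at chr9:63969238-63969299, deep in the gene. Both molar pSmad1/5 summits lay inside the gene, 24930 and 25906 bp from its upper end, with scores of 4.38 and 3.15. The molar Smad4 peak, of score 4.07, was 39990 bp away, on a chromosome where that list starts at 4. The pSmad1/5 ratios to chromosome 9 were 1.08 in limb and 1.45 in molar, and 49.96% and 44.0% of its 1201 genes were as dense. For limb Smad4 the ratio was 3.90, level with that of Smad3 and the highest of the 8 genes in that list, and 13.3% of genes were as dense. For molar Smad4 it was 1.67, with 34.1% as dense.

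Smad7, which inhibits both branches, had 7 pSmad1/5 and 3 Smad4 peaks in limb, and 3 pSmad1/5 and 4 Smad4 peaks in molar. It is the shortest gene of the family at 28571 bp, and its limb pSmad1/5 density was 6.77 times that of chromosome 18, and 2.94% of the 511 genes there were as dense. Limb pSmad1/5 summits lay inside the gene at 358 bp (score 3.05), 5985 bp (score 3.77) and 12976 bp (score 3.44) from its lower end. The strongest, of score 4.90, lay 24026 bp outside that end (chr18:75343309-75343361). In molar the strongest pSmad1/5 peak was inside, 1352 bp from the same end (chr18:75368669-75368728, score 5.00), and 2.72% of the molar pSmad1/5 peaks of the chromosome scored as high. Limb Smad4 summits lay 8360 and 13252 bp inside the upper end and 14274 bp beyond it, with scores of 3.23, 3.34 and 3.54. All 4 molar Smad4 peaks lay beyond the upper end, 13659 to 41018 bp away, and 3 of them were nearest to Ctif. No peak at Smad7 overlapped a peak of another list.

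**Figure D3:**
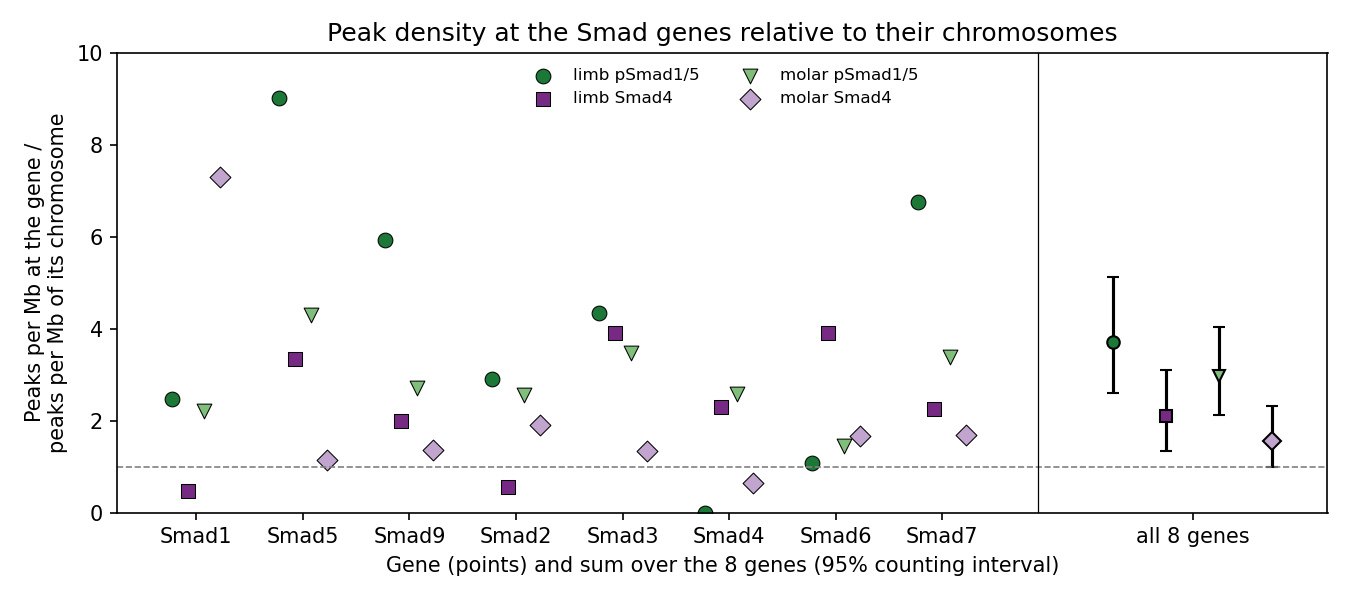
Peaks per Mb at each Smad gene divided by the peaks per Mb of its chromosome (vertical axis) in the 4 libraries, with the sum over the 8 genes and its 95% counting interval at the right. The dashed line is the chromosome's own density. Limb pSmad1/5 runs from 0 at Smad4 to 9.01 at Smad5, and the molar Smad4 point of Smad1 is at 7.30.

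By class, limb pSmad1/5 density relative to the chromosomes was 4.92 (2.96 to 7.69) for the 3 BMP-regulated Smads, 4.09 (1.76 to 8.05) for the 2 inhibitory Smads and 3.56 (1.63 to 6.76) for the 2 TGF-beta-regulated Smads. For the common Smad it was 0 (0 to 2.71). The counting intervals of the first 3 classes overlapped widely. That of the common Smad, a class of 1 gene, ended below the BMP-regulated one but holds the ratio of Smad1 (2.48), a BMP-regulated Smad. The intervals treat peaks as independent and do not cover the spread between genes. Within the classes, the inhibitory pair ran from 1.08 at Smad6 to 6.77 at Smad7, the BMP-regulated Smads from 2.48 at Smad1 to 9.01 at Smad5, and the TGF-beta-regulated pair from 2.91 at Smad2 to 4.33 at Smad3. Some limb pSmad1/5 peaks counted here lay nearest to another protein-coding gene. Among the BMP-regulated Smads these were 7 of 9 at Smad5, 3 of 5 at Smad9 and 1 of 5 at Smad1. At Smad7 it was 1 of 7, and at Smad2, Smad3 and Smad6 none. With those peaks left out, over the same numbers from chromosome density, the BMP-regulated Smads would rank below the inhibitory and TGF-beta-regulated Smads. Their lead in this list thus rests on peaks nearest to other genes. No interval was computed for this narrower count.

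In the molar pSmad1/5 list the classes lay at 3.21 (2.06 to 4.78) for BMP-regulated, 3.10 (1.42 to 5.89) for TGF-beta-regulated, 2.58 (0.531 to 7.53) for the common and 2.20 (0.716 to 5.15) for the inhibitory Smads. For limb Smad4 the inhibitory Smads had 2.97 (1.20 to 6.13), the common Smad 2.29 (0.624 to 5.87), the TGF-beta-regulated 1.97 (0.723 to 4.29) and the BMP-regulated 1.62 (0.650 to 3.33). For molar Smad4 the values were 1.87 (0.898 to 3.44) for BMP-regulated, 1.79 (0.722 to 3.698) for TGF-beta-regulated, 1.68 (0.546 to 3.92) for inhibitory and 0.641 (0.0776 to 2.31) for the common. In these 3 lists every interval overlapped every other. The classes hold 1 to 3 genes, and no test was made between them.

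Peaks of different libraries rarely coincided, at the family and over the whole lists alike. Of the 36 limb pSmad1/5 peaks, 2 overlapped a limb Smad4 peak by at least 1 bp (5.56%, beside 4.85% of the whole list), at the start of Smad1 and in Exosc8 upstream of Smad9. These 2 genes compare with 12.7% of all protein-coding genes that had such a site within 50 kb. Limb and molar pSmad1/5 overlapped at 1 of the 36 limb peaks (2.78%, beside 1.70% of the whole list), at Smad2. By genes, 4.82% of all protein-coding genes had such a site. Upstream of Smad9 a limb Smad4 peak (score 3.39) overlapped a molar pSmad1/5 peak (score 2.25) by 55 bp (7.72% of genes had such a site). This was 4.17% of the limb Smad4 peaks at the family, beside 2.29% of the whole list. In molar, pSmad1/5 and Smad4 overlapped at none of the 8 genes, and 1.94% of all genes had such a site. No molar Smad4 peak of the family overlapped a limb peak either, where 0.923% (pSmad1/5) and 1.54% (Smad4) of genes had such a site.

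More peaks lay side by side than overlapped. With summits within 200 bp, limb pSmad1/5 and limb Smad4 met at Smad1, Smad5, Smad9 and Smad2, where 19.6% of protein-coding genes had such a pair. Limb Smad4 and molar pSmad1/5 met at Smad5, Smad9, Smad2 and Smad3, where 14.1% had one. Limb and molar pSmad1/5 met at Smad5 and Smad2, where 9.96% had one. By peaks, 4 of 36 limb pSmad1/5 peaks met limb Smad4 (11.1%, beside 8.94% of the whole list). Molar pSmad1/5 was met by 2 of those 36 (5.56%, beside 3.80%) and by 4 of 24 limb Smad4 peaks (16.7%, beside 4.76%). The Smad5 pairs lay beyond its upper end, with summits 10303 and 10427 bp out in Gm45623 and 34153 to 37004 bp out in Trpc7. In Trpc7 a limb pSmad1/5 peak sat between 2 limb Smad4 peaks with gaps of 1 and 6 bp. No such pair was at Smad4, Smad6 or Smad7, and none included molar Smad4. Over all protein-coding genes, 2.87% had a pair of molar Smad4 with limb pSmad1/5, 3.79% with limb Smad4 and 4.39% with molar pSmad1/5.

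**Figure D4:**
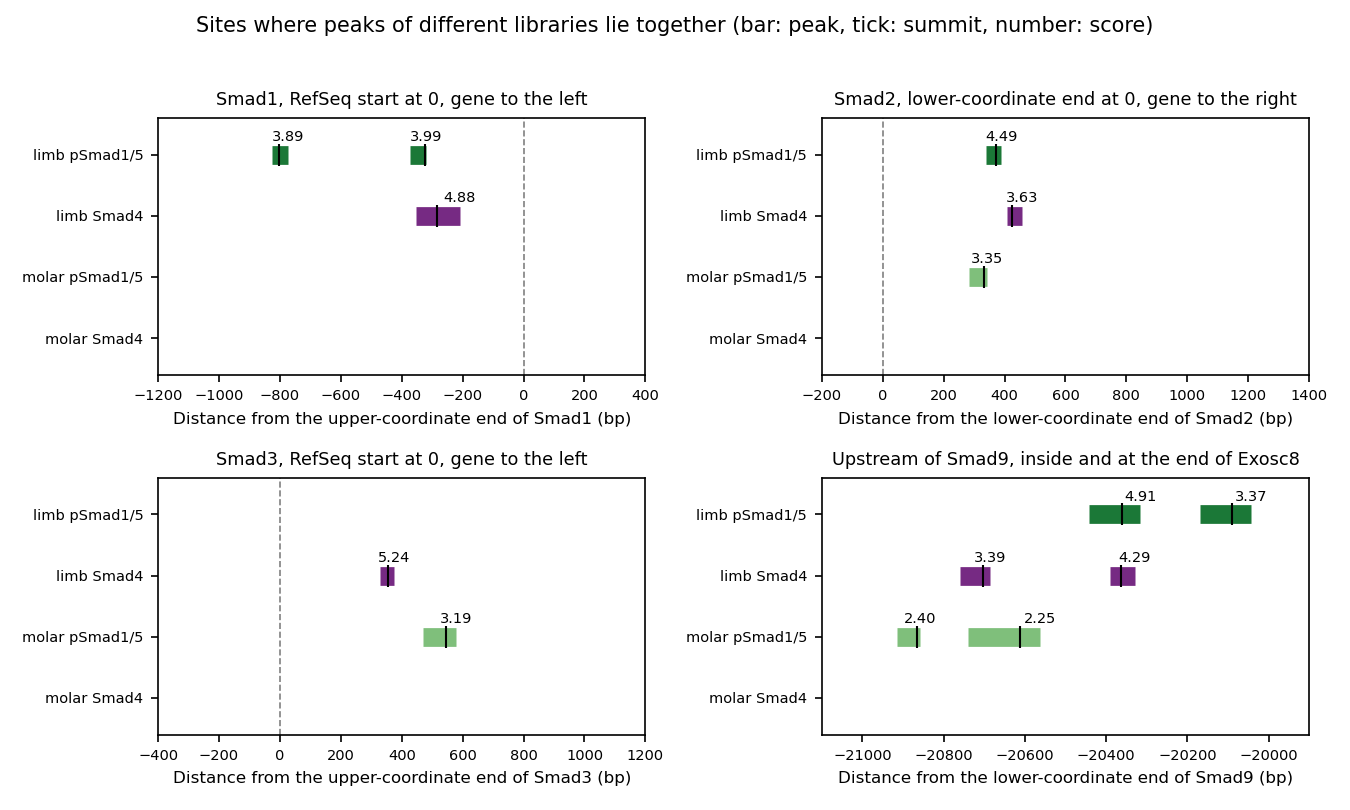
Peaks of the 4 libraries (rows) near the starts of Smad1 and Smad3, the lower-coordinate end of Smad2 and the Exosc8 end upstream of Smad9, by distance in bp from an end of the Smad gene (horizontal axis). Bars span the peaks, ticks are summits and numbers are enrichment scores. The molar Smad4 row is empty in all 4 panels, and at Smad2 the other 3 libraries lie within 200 bp of each other.

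Other genes of the pathway were counted in the same windows. Their counts are raw and were not set beside window length or chromosome density, so they give a rough scale only. Of 12 receptor genes of the superfamily, 10 had a limb pSmad1/5 peak, 8 a limb Smad4, 11 a molar pSmad1/5 and 7 a molar Smad4 peak within 50 kb. Their median counts were 2, 1.5, 5 and 2, where the medians over all protein-coding genes were 1, 2, 2 and 1. Over all protein-coding genes the shares with a peak were 68.0%, 71.2%, 74.9% and 68.0% in that order. Within 1 kb of an end, 3, 0, 7 and 2 of the 12 had a peak, beside 15.5%, 21.8%, 20.7% and 7.76% of all protein-coding genes. Acvr2a, a type II activin receptor, had no peak in any list. Acvr1b, a type I activin receptor, had the most (6 pSmad1/5 and 9 Smad4 peaks in limb, and 8 pSmad1/5 and 7 Smad4 peaks in molar), followed by Bmpr1a, a type I BMP receptor (6, 8, 9 and 3).

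Of 18 genes for regulators and cofactors of Smads, 15, 16, 16 and 17 had a peak in the same order, with medians of 2, 3, 2.5 and 3. Within 1 kb of an end, 6, 6, 6 and 2 did, to be read against the shares over all genes given for the receptors. Zfp423, a zinc-finger partner of BMP Smads, had 21 pSmad1/5 and 20 Smad4 peaks in limb, and 9 pSmad1/5 and 4 Smad4 peaks in molar. Ski, a corepressor of Smads, had 6, 11, 7 and 11, and Nedd4l, a ubiquitin ligase acting on Smads, 9, 10, 1 and 15. The medians of the Smad genes themselves were 5, 3.5, 3 and 3.

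The gene most like Smad5 in its 4 counts was Thbs3, with the same numbers in all 4 libraries. Pklr differed by 1 peak in all and Mtx1, tied with 1 other gene, by 2. Likeness was the sum of the absolute differences of the 4 counts, over all protein-coding genes. These 3 genes lie close together on chromosome 3, within 89136122 to 89226841, so their windows share peaks.

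At the edge of the 50 kb window, the outermost peaks counted were 2 molar Smad4 peaks, at 49429 bp from Smad2 (score 4.66) and 49038 bp from Smad9 (score 3.88). The first ones left out were a molar Smad4 peak at 50303 bp from Smad5 (score 3.17) and a molar pSmad1/5 peak at 50607 bp from Smad4 (score 3.07).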

How the data were processed

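ChIP-seq peak lists for pSmad1/5 and Smad4 from limb and molar tooth germ were analysed, with 1 library per group. The labels give 2 inputs, which were not analysed here. Per the labels, peak calling by the authors used BCP (mode for transcription factors), and they deposited for each peak its position, length, summit, enrichment score and p-value. The submitters' processing notes name, without roles, bcl2fastq, Bowtie2, deepTools, SAMtools and bedtools, and the build mm10. The use of the inputs as controls, duplicate handling and problem regions are not given in the sources used here. The deposited enrichment score is the authors' value per peak and was used to describe, rank or filter peaks within a list. The deposited p-value never reached 0.001 and entered no result. The lists hold no read counts, so depth is unknown and no floor could be set. No genome sequence of the peaks was used here.

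Genes, positions and promoter windows (250 bases before and 50 after a start) came from RefSeq on GRCm38.p6, and 5 of the 8 Smad genes matched a promoter. Chromosome density was the number of peaks over the span to the last protein-coding gene. A shared site needed an overlap of 1 bp or more. Intervals are exact 95% Poisson intervals. No p-value was computed. Named peaks were those within 1 kb of a gene end, the highest-scoring of each list and those overlapping another list. Pathway genes named were those with no peak in any list or the 2 with the most peaks (with ties), and any other named peak was picked with its value in view. The members and lists were chosen with earlier results of these data known. Counting and overlap were tested on simulated data. Alternatives were other windows (10 and 100 kb), a score of at least 4, equal numbers of top-scoring peaks per chromosome, overlap by 25 bp or summits within 200 bp, and, added after the data were seen, peaks nearest to the Smad gene and the density ratio under these settings. Scripts ran under Python 3.11.15 with pandas 2.3.3, numpy 2.4.6, matplotlib 3.10.9 and scipy 1.17.1.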

Additional observations from a re-analysis of the deposited data

How the results depend on the processing

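Of 59 alternative values, 39 stayed near the reported ones (counts within 1.5 times, density ratios inside their counting intervals) and 20 moved. Within 10 kb, peaks at Smad genes numbered 18 and 12 in limb (pSmad1/5 and Smad4) and 22 and 8 in molar (likewise), and molar Smad4 peaks lay at 4 genes. Within 100 kb limb pSmad1/5 peaks lay at 8 of 8 genes, and peaks numbered 48 for limb Smad4 and 45 for molar Smad4. With a score of at least 4, limb pSmad1/5 had 6 peaks at 5 genes, limb Smad4 had 4 at 4 genes, molar pSmad1/5 had 6 at 5 genes and molar Smad4 had 10 at 5 genes. Those 10 include every molar Smad4 peak at Smad1, Smad3 and Smad6, where that list starts at 4. Within 10 kb the density ratio of molar Smad4 was 1.085, close to that of the chromosomes, against 1.56 within 50 kb. Among peaks scoring 4 or more it reached 2.53, and the order of the lists in this ratio changed, with limb Smad4 lowest at 1.34. Equal numbers of peaks per chromosome gave 20 molar pSmad1/5 and 14 molar Smad4 peaks. Counting only peaks nearest to the Smad gene gave 24 limb pSmad1/5 peaks at 7 genes and 15 limb Smad4 peaks at 6. In molar it gave 29 pSmad1/5 peaks at 8 genes and 17 Smad4 peaks at 7. For each pair of lists, peaks of the first list that overlapped a peak of the second were counted, 4 in all. They numbered 10 with summits within 200 bp and 1 among peaks with a score of at least 4. No paired analysis was possible because each group has 1 library. Unknown depth limits every comparison of list sizes, and a missing peak does not show missing binding.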
